A study of Mus musculus with 10 samples.

Results

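Myc and 33 genes of ribosome assembly and growth metabolism were followed across B and T cell classes of the BXD2 spleen. BXD2 mice, from a recombinant inbred strain, make spontaneous germinal centers (GCs) and autoantibodies. The 34 genes were taken from a list of symbols, and each was found 1 time among the 31053 features of the matrices. Besides Myc, a transcription factor gene, most are genes of ribosome assembly and the nucleolus, and the rest are polyamine, nucleotide, one-carbon and other genes that are often counted among MYC targets. The genes were chosen with earlier results of these data known.

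The samples were 5 droplet single-cell RNA libraries made with a 5' kit, 1 per mouse, from the spleens of 3 BXD2 mice without p19, a subunit of IL-23 (p19-/-; replicates 1 and 2 female, replicate 3 male) and 2 BXD2 wild-type mice (WT; both female). A B cell receptor library of each mouse was used to find immunoglobulin contigs. All mice share the BXD2 background, and the labels give no age, treatment, sort gate or capture day, nor how the p19 allele was made. They name B and T cells as the source. Cells were grouped into classes by clusters of marker genes, called "-like" because no sort defines them, and the mouse was the replicate throughout.

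MYC is a transcription factor that raises the synthesis of ribosomes, nucleotides and polyamines in growing cells. In the GC, B cells of the light zone receive help from T follicular helper (Tfh) cells, switch on Myc for a short time and return to the dark zone to divide. Ribosome assembly starts in the nucleolus with rRNA synthesis by RNA polymerase I, followed by rRNA modification, cleavage and packing with ribosomal proteins.

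The promoter is where MYC binds many of its targets, through the E-box CACGTG. RefSeq windows of build GRCm38.p6 (the mm10 assembly), from 250 bases before to 50 bases after a gene's start, were at hand for 28 of the 34 genes. The palindrome CACGTG lay in the windows of 4 of these 28 genes (14.29%), against 8.09% of 27025 genes in the whole table. The variant CACGCG, on either strand, lay in 10 of 28 (35.71%) against 10.49%; Pes1 held both motifs. Both strands were searched, and CACGCG reads CGCGTG on the other strand. Windows of the 34 genes had a median GC content of 60.7% against 52.7% for all windows, and the shares were not matched for it. A match describes letters in a window, not binding. The 5 windows printed here are those of Timm8a1 and Nop2, which hold CACGTG, of Odc1 and Nolc1, which hold the variant, and of Gnl3, which holds neither and was among the genes that differed most in the comparisons below. Capitals mark either motif, and each sequence reads 5' to 3' on the gene's strand.
Timm8a1 (chrX:134541621-134541920, minus strand): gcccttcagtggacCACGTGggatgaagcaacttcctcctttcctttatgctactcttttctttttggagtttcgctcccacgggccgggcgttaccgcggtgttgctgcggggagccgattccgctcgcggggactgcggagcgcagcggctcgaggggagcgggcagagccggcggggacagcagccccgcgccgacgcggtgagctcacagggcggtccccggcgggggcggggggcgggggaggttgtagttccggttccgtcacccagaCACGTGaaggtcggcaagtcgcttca
Nop2 (chr6:125131633-125131932, plus strand): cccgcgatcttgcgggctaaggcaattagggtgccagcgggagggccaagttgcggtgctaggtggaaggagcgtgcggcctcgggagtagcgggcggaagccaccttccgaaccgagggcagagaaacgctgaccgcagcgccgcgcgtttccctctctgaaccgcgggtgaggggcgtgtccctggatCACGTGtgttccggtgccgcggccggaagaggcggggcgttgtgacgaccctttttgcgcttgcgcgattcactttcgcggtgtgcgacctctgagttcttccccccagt
Odc1 (chr12:17544623-17544922, plus strand): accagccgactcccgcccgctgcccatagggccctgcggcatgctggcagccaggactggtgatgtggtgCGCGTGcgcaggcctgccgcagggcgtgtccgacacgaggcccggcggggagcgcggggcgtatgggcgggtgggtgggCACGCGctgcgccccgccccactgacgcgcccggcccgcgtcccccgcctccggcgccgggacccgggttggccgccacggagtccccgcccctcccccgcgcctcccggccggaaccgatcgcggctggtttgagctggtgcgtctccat
Nolc1 (chr19:46075597-46075896, plus strand): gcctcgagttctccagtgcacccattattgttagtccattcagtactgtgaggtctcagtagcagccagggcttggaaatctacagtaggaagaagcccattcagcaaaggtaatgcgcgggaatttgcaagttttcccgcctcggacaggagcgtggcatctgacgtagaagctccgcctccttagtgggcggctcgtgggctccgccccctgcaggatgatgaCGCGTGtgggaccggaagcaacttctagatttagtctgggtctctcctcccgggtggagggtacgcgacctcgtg
Gnl3 (chr14:31019082-31019381, minus strand): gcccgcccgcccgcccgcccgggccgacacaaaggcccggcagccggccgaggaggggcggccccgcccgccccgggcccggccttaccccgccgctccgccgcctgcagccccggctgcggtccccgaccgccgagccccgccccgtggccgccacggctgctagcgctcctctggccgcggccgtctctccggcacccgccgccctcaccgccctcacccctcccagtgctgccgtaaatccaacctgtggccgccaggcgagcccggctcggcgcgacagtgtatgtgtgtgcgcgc

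The 5 RNA libraries held 11355 barcodes and 69958493 UMIs (unique molecular identifiers, counted once per captured RNA molecule), between 7712457 and 18093053 UMIs a library, and 9200 cells were kept. The targeted gene Il23a had 0 UMIs in every library, p19-/- and WT, so it could not check the labels. Of the kept barcode sequences, 45 occurred in more than 1 library. GC B-like cells numbered 2969, from 237, 247 and 909 cells in p19-/- mice 1 to 3 and 1083 and 493 in WT mice 1 and 2. A heavy-chain contig was found in 76.2% of GC B-like cells and in 2.41% of Tfh-like cells. The 34 genes and the related growth lists were left out of the genes used for clustering.

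Among cell classes with at least 20 cells in 3 or more mice, the growth genes had their highest mean levels in GC B-like cells and a second B cell cluster, and their lowest in macrophage or monocyte-like cells and, when immunoglobulin UMIs count in the total, in plasma cell-like cells. Levels are in CPM, the usual counts-per-million scale of UMIs over the UMI total of a class and mouse, and the 33 genes other than Myc were summed. That sum was 5498 ± 449 CPM (SD, n = 5 mice) in GC B-like cells and 6180.4 ± 1221 CPM in the second cluster. This cluster stayed unnamed by the marker lists and is called by its leading genes, the Sox4 Pcp4 B cluster. Of its 557 cells 312 came from p19-/- mouse 1. In the remaining of these classes the sum was 3453 ± 762 CPM in CD8 T-like, 2979.5 ± 104 in mature non-GC B-like, 2831 ± 438 in Treg-like, 2304 ± 66.9 in Tfh-like, 2274 ± 162 in other CD4 T-like and 1553 ± 83.5 in macrophage or monocyte-like cells. Plasma cell-like cells summed to 1522 and 4424 CPM in p19-/- mice 1 and 2. With 19 and 16 such cells, these mice were left out of the mean. Over the 3 mice with 20 or more such cells, the sum was 1515 ± 434 CPM. With immunoglobulin UMIs left out of the total it was 2535 ± 517 CPM, above the means of Tfh-like (2309), other CD4 T-like (2276) and macrophage or monocyte-like cells (1554), so its place in the order depends on that choice. Neutrophil-like cells, with 7 to 14 cells a mouse, had lower sums of 265 to 560.1 CPM. The mouse ranges of the 2 highest classes overlapped, as did those of CD8 T-like, mature non-GC B-like and Treg-like cells with each other, those of Tfh-like and other CD4 T-like cells, and those of the lowest pair; other CD4 T-like cells also reached the lowest Treg-like mouse. GC B-like cells of all cycle stages together overlapped with no class below them. Those assigned to G1 (stages below) had 3359 to 4059 CPM by mouse, within the CD8 T-like range of 2677 to 4374 CPM. Stages were not assigned in the other classes. A summed value alone does not tell fewer expressing cells from less RNA per cell, and shares of expressing cells by class are given below for Myc only.

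**Figure D1:**
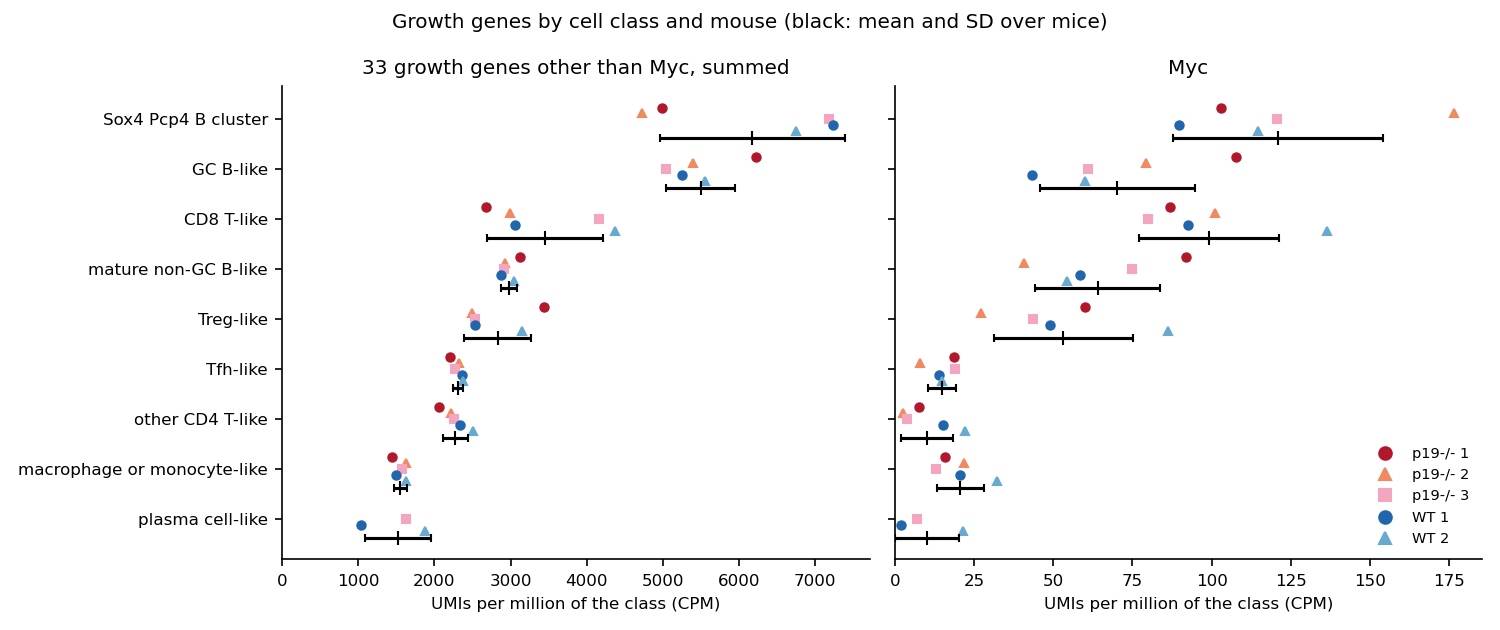
Summed level of the 33 growth genes other than Myc (left) and level of Myc (right), in CPM (linear axes from 0), for the 9 cell classes with at least 20 cells in 3 or more mice. Each symbol is 1 mouse and the black bar gives the mean and SD over mice; GC B-like cells sit between 5048 and 6226 CPM, above every T cell-like class.

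Myc followed another order than the sum of the other 33 genes. It stood at 121 ± 33.2 CPM in the Sox4 Pcp4 B cluster, 99.3 ± 22.1 in CD8 T-like cells, 70.2 ± 24.5 in GC B-like cells, 64.1 ± 19.7 in mature non-GC B-like cells and 53.2 ± 21.8 in Treg-like cells (SD, n = 5). Tfh-like cells had 14.9 ± 4.40 CPM. Mature non-GC B-like and GC B-like cells thus had Myc levels within the spread of the mice, while their summed growth genes did not overlap. Among the 8 classes with 20 cells in all 5 mice, 20 of the 34 genes peaked in the Sox4 Pcp4 B cluster and 12 in GC B-like cells. Cad, which makes the first pyrimidine precursors, peaked in CD8 T-like cells at 23.3 CPM against 22.6 CPM in GC B-like cells. Fscn1, an actin-bundling protein gene, peaked in mature non-GC B-like cells at 208 CPM; in dendritic cell-like cells, with enough cells in only 2 mice, it was 603 CPM.

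**Figure D2:**
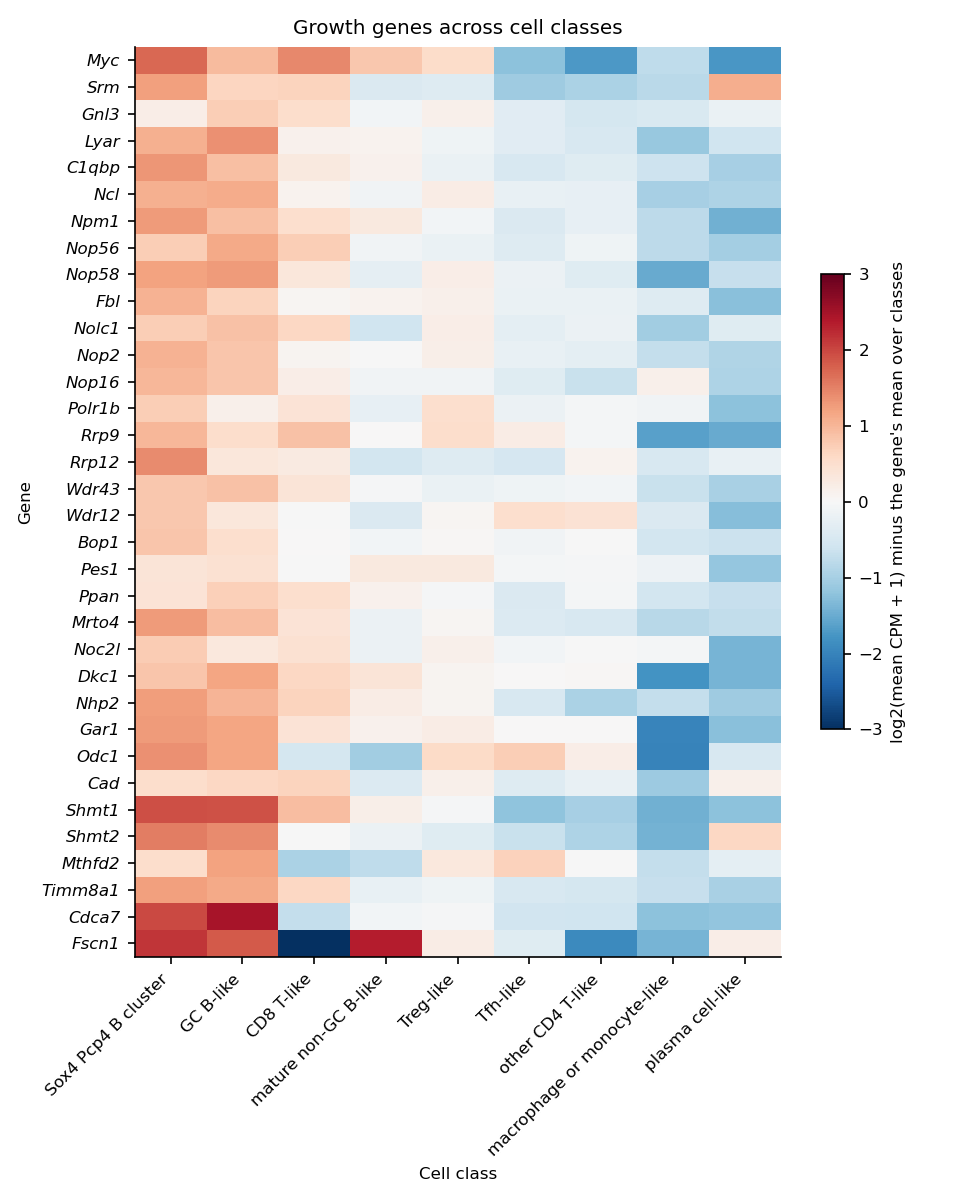
Each of the 34 genes (rows) in the 9 cell classes (columns), as log2 of the mean CPM over mice plus 1, minus the gene's mean over the classes. The 2 leftmost columns, the Sox4 Pcp4 B cluster and GC B-like cells, hold the highest level of 32 of the 34 genes among the 8 classes with all 5 mice; plasma cell-like cells are high in Srm.

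Plasma cell-like cells had less of most growth genes than GC B-like cells, in a comparison with plasma cell-like cells from 3 mice. With edgeR's quasi-likelihood test on counts summed per mouse and class (mouse as block, Benjamini-Hochberg over all genes, adjusted p under 0.05), 25 of the 33 genes that passed the filter on low counts were lower and 1 was higher. Of all genes tested, 23.5% were lower and 20.3% higher. Among box C/D and H/ACA snoRNP genes, which guide rRNA modification, Dkc1 fell by 1.73 ± 0.198 (log2 ± SE, adjusted p = 5.3e-09) and Gar1 fell by 1.70 ± 0.226 (adjusted p = 1.1e-07). The nucleolar chaperone gene Npm1 fell by 1.65 ± 0.128 (adjusted p = 4.1e-13). Cdca7, a chromatin gene induced before S phase, fell by 2.97 ± 0.395 (adjusted p = 1.2e-07).

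Srm, the spermidine synthase gene, was the member that rose in plasma cell-like cells, by 1.12 on the log2 scale (adjusted p = 0.00016). Its level was 166 CPM in p19-/- mouse 3 and 70.9 and 179 CPM in WT mice 1 and 2, against 94.0, 97.1 and 97.6 CPM in the GC B-like cells of the same mice. In WT mouse 1 the plasma cell-like value thus lay below the GC B-like one on the CPM scale. Immunoglobulin genes took 40.7% of the UMIs of plasma cell-like cells and 1.30% of those of GC B-like cells, so all CPM values of plasma cells are lowered by that share. With immunoglobulin UMIs left out of the total, GC B-like cells stood at 5571 ± 449 CPM for the 33 summed genes, above the 2535 CPM of plasma cell-like cells. Both the number of RNA molecules per cell and their composition enter such values. The comparison of genotypes in plasma cells was not made, because p19-/- mice 1 and 2 had 19 and 16 such cells.

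Mature non-GC B-like cells had lower levels than GC B-like cells for 28 of 33 genes and a higher one for Fscn1, where 25.4% of all genes were lower and 24.0% higher. The largest differences were in Cdca7, which fell by 2.58 ± 0.254 (log2 ± SE, edgeR adjusted p = 1.3e-10), in Odc1, which fell by 2.18 ± 0.195 (adjusted p = 1.3e-11), and in Mthfd2, which fell by 1.92 ± 0.142 (adjusted p = 1.2e-13). Odc1 encodes ornithine decarboxylase, the first step of polyamine synthesis, and Mthfd2 a mitochondrial one-carbon enzyme. Odc1 read 59.7, 46.2, 51.9, 49.8 and 52.2 CPM in the mature cells of p19-/- mice 1 to 3 and WT mice 1 and 2, against 267, 251, 244, 234 and 238 CPM in their GC B-like cells. Every mouse thus had over 200 CPM of Odc1 in GC B-like cells and under 60 in mature cells. Myc differed by 0.01 (adjusted p = 1.0). Ribosomal protein genes went the other way from the assembly genes: 53 of 81 tested were higher and 3 lower in the mature cells, with a median of 0.28 against -0.01 over all genes.

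Tfh-like cells were lower than GC B-like cells for 32 of 33 genes, in a comparison where 35.7% of all genes were lower. Wdr12, a large-subunit assembly factor gene, was the exception at -0.16 (edgeR adjusted p = 0.31). Cdca7 fell by 3.41 ± 0.235 (log2 ± SE), Shmt2, the mitochondrial serine hydroxymethyltransferase gene, by 2.41 ± 0.165, and Myc by 2.45 (adjusted p = 1.2e-11). Npm1 read 661, 619, 636, 684 and 689 CPM in the Tfh-like cells of the 5 mice and 1724, 1656, 1543, 1694 and 1787 CPM in their GC B-like cells. The groups stood far apart in each mouse. Odc1 differed less: it fell by 0.73, from 234 to 267 CPM in GC B-like cells to between 167 and 194 CPM in Tfh-like cells. Against Treg-like cells, Tfh-like cells had lower Myc, which fell by 1.83 ± 0.279 (adjusted p = 6.8e-06), and lower Mrto4, Npm1 and Nhp2, while Wdr12 and Mthfd2 were higher; 7.18% of all genes were lower and 6.67% higher. Instead of 6 members, 2 were called without p19-/- mouse 1, 1 without p19-/- mouse 2 and 3 without WT mouse 2.

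The Sox4 Pcp4 B cluster was compared with GC B-like cells after its levels had been seen. Of the 34 genes 11 were higher and 1 lower, where 14.8% of all genes were higher and 13.7% lower. Myc was higher by 1.04 ± 0.258 (log2 ± SE, edgeR adjusted p = 0.0020), Fbl, the rRNA methyltransferase gene, by 0.68 ± 0.138 (adjusted p = 0.00024), and Npm1 by 0.54 ± 0.109 (adjusted p = 0.00021), while Mthfd2 fell by 0.73 (adjusted p = 0.0083). Of 81 ribosomal protein genes 80 were higher. Without p19-/- mouse 1 the members called dropped to 4. These cells held 13.9 UMIs of the 33 genes per cell against 75.5 in GC B-like cells, at a median depth of 2157 against 10005 UMIs. The cluster differed between mice. In p19-/- mouse 1 its cells had a median of 3773.5 UMIs and 86.8 CPM of summed GC markers, and in the other mice 626 to 1100.5 UMIs and 353 to 1737 CPM. The 33 genes summed to 4991 and 4734 CPM in p19-/- mice 1 and 2, below the 6226 and 5403 CPM of their GC B-like cells, and to 7187, 7237 and 6753 CPM in p19-/- mouse 3 and WT mice 1 and 2, above theirs. The part of depth and of GC marker RNA in these levels was not tested.

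Within GC B-like cells, all 34 genes were higher in light zone than in dark zone cells. Cells of each mouse were ranked by a light zone score minus a dark zone score, with none of the 34 genes in either list, and the upper and lower tertile were compared. The sum of the 33 genes was 4061, 3375, 3715, 3489 and 3762 CPM in the dark tertile of p19-/- mice 1 to 3 and WT mice 1 and 2, and 7761, 7447, 6559, 7203 and 7345 CPM in the light tertile. Each light value lay above every dark value. With edgeR's quasi-likelihood test (mouse as block), all 34 passed in the light direction, with a median log2 difference of 1.22 against -0.00 over all genes, and 20% of all genes tested were called in that direction. The tertiles come from scores on the same cells and UMIs, so the p-values describe how the genes go with the scores and are smaller than an independent label would give.

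Of the 34 genes Myc had the largest difference. It stood at 15.5, 13.9, 9.14, 7.51 and 11.4 CPM in the dark tertile and at 208, 171, 139, 97.8 and 124 CPM in the light tertile, 3.68 ± 0.0956 higher on the log2 scale (adjusted p = 2.4e-09). With scores taken on cells thinned to 2000 UMIs, the difference (dark over light) was -2.56 ± 0.218. Every light zone mouse stood far above every dark zone mouse.

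Among metabolic genes, Srm read 32.0, 15.9, 32.1, 26.8 and 24.0 CPM in the dark and 247, 154, 165, 180.2 and 172 CPM in the light tertile, a log2 difference of 2.74 ± 0.108 (edgeR adjusted p = 4.9e-08). Cad rose from 17.5, 6.95, 8.26, 10.8 and 11.8 CPM to 38.4, 22.3, 32.6, 36.7 and 35.3 CPM, by 1.65 (adjusted p = 4.8e-06). In neither gene did the tertiles overlap. Shmt1, the cytosolic serine hydroxymethyltransferase gene, was 2.08 higher (adjusted p = 2.5e-06). Odc1 was the member that moved least, by 0.21 (adjusted p = 0.041). It read 269.9, 209, 229, 199 and 203 CPM in the dark and 253, 270.0, 249.8, 265 and 246 CPM in the light tertile, so that p19-/- mouse 1 ran against the other mice. Its direction flipped to 0.085 higher in the dark tertile when cycle genes were part of the dark zone score.

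Nucleolar genes differed over a wide range. Gnl3, which encodes the nucleolar GTPase nucleostemin, was 2.24 ± 0.105 higher in the light tertile (edgeR adjusted p = 1.0e-07), and Polr1b, the second largest RNA polymerase I subunit, 2.02 (adjusted p = 2.4e-05). Nolc1, a scaffold for snoRNPs, read 81.6, 33.8, 56.0, 42.4 and 55.2 CPM in the dark and 235, 155, 170.2, 176 and 169.9 CPM in the light tertile. This was a log2 difference of 1.76 ± 0.0989 (adjusted p = 3.5e-07) without overlap. The abundant nucleolar genes Ncl and Npm1 were 0.97 and 0.67 higher (adjusted p = 6.1e-07 and 2.0e-06), and Bop1 and Pes1, partners in a large-subunit assembly complex, 0.55 and 0.66. Fscn1 read 58.3, 84.4, 54.5, 47.0 and 56.0 CPM against 288, 272, 219, 166 and 254 CPM, 1.98 ± 0.0873 higher (adjusted p = 7.5e-08).

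**Figure D3:**
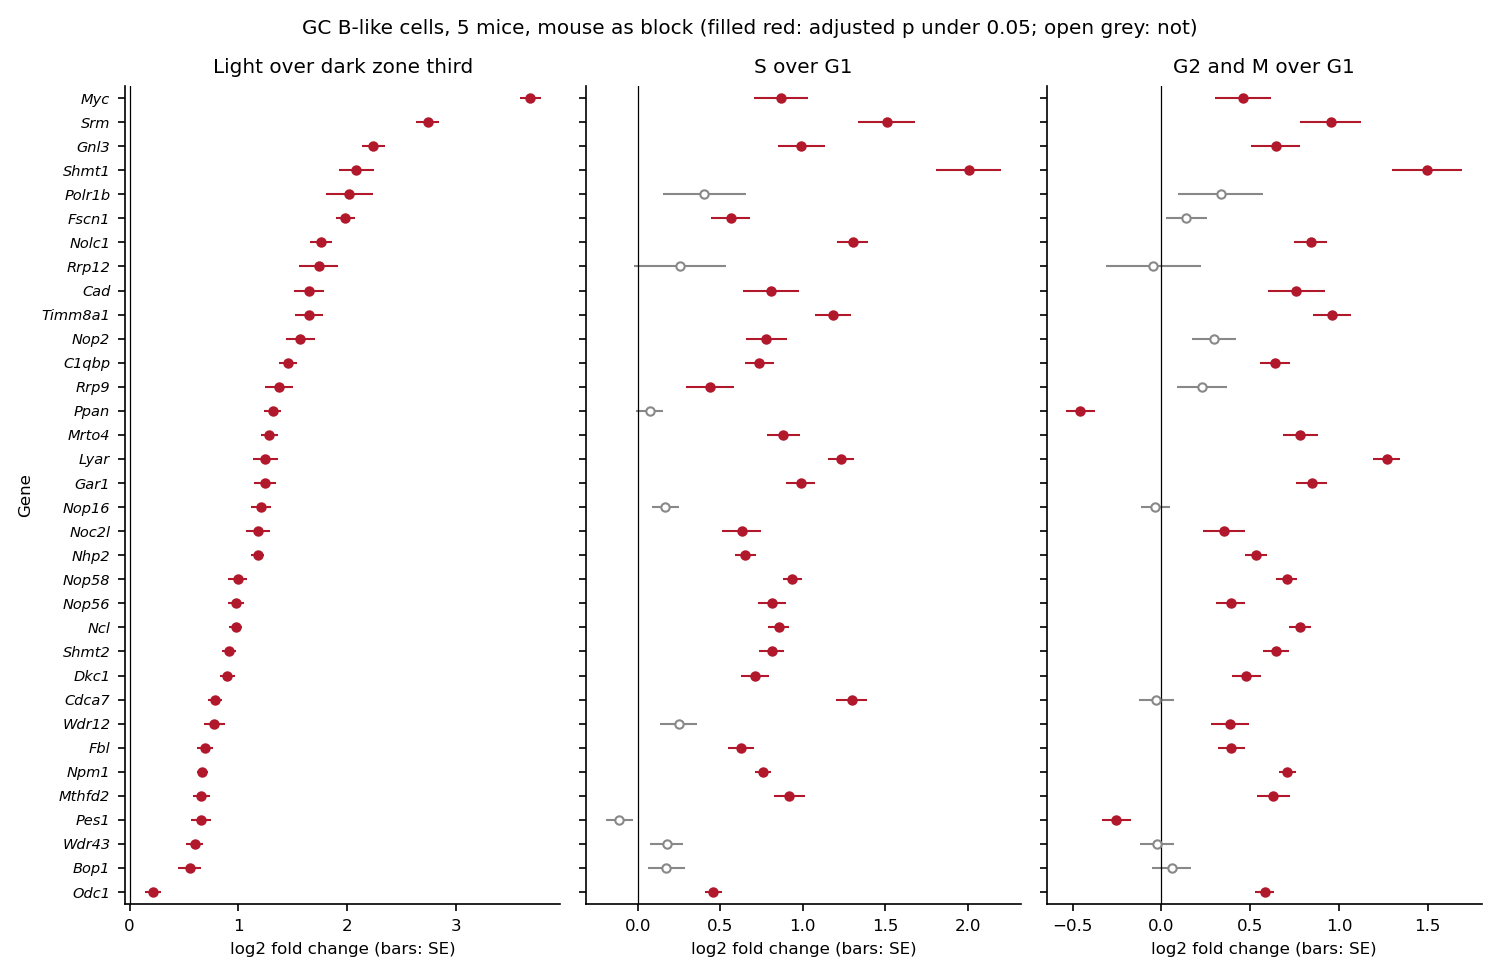
Log2 fold change with SE of each of the 34 genes in GC B-like cells of 5 mice, for the light over the dark zone tertile, S over G1 and G2 and M over G1; red filled points have an adjusted p under 0.05 and grey open points do not. All 34 points are filled and right of 0 in the zone panel, from 0.21 for Odc1 to 3.68 for Myc.

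Related genes outside the 34 showed the same side for ribosome assembly but not for ribosomal proteins. Of 49 tested genes on a list of other ribosome biogenesis factors, 43 were higher in the light tertile and 0 in the dark tertile, among them Rrp1b, Rrp15, Mybbp1a and Ddx21, with a median log2 difference of 0.74. All 12 translation factor genes were higher in the light tertile, with Eif5a at 0.80 and a median of 0.62. Of 22 nucleotide and one-carbon genes, 16 were higher in the light and 2 in the dark tertile. Of 18 RNA polymerase I genes, 11 were higher in the light tertile and 1 in the dark tertile. Of 81 cytosolic ribosomal protein genes, 23 were higher in the light and 9 in the dark tertile, with a median of 0.03, and their summed share was 267919 ± 6554 CPM against 264041 ± 5111 CPM. In the polyamine list, 4 of 6 genes were higher in the dark tertile, including Oaz1 at 0.38 and Sat1 at 0.84, which encode an inhibitor and a catabolic enzyme of the pathway, while Amd1 was higher in the light tertile. Of the MYC network genes, Tfap4 and Fbxw7 were higher in the light tertile and Mxd3 and Mxd4, which encode MAX partners that oppose MYC, in the dark tertile.

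Light zone cells differed from dark zone cells in other ways. Their median depth was 12533 against 10453 UMIs, averaged over mice. Summed T cell markers stood at 182 ± 24.4 against 133 ± 11.4 CPM, where the Tfh-like cells of the mice had 8381 to 9129.8 CPM. A T cell marker UMI was found in 74.3% of light and 64.7% of dark zone cells, averaged over mice. The part of these UMIs in the zone difference was not tested. Among G1 cells alone, ranked again, 24 of the 30 genes tested were higher in the light tertile, Myc with a log2 difference of -3.69 (dark over light), where 7.5% of all genes were higher there. The dark G1 sums held 106857 to 611983 UMIs, so the Myc value rests on few Myc UMIs on the dark side.

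The growth genes also followed the cell cycle. Cells thinned to 2000 UMIs were assigned to stages from lists of S phase and of G2 and M phase genes, giving 796 G1, 736 S and 1295 G2 or M cells. The 33 genes summed to 3747 ± 251 CPM in G1, 6227 ± 503 CPM in S and 5585 ± 476 CPM in G2 and M cells (SD, n = 5), at median depths of 7264, 13083 and 15790.5 UMIs. Myc stood at 48.3 ± 22.1, 87.9 ± 31.7 and 67.2 ± 24.6 CPM. In S against G1 cells, 26 of 34 genes rose and 0 fell by edgeR's quasi-likelihood test, with a median of 0.77, where 21.4% of all genes rose and 19.8% fell. In G2 and M against G1 cells 23 rose and 2 fell, with a median of 0.51, where 21.6% of all genes rose and 21.0% fell. The stages too rest on UMIs of the same cells.

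Cdca7 stood highest in S phase in every mouse. It read 103, 104, 87.6, 86.3 and 100.013 CPM in G1, 229, 229.7, 225, 232 and 216 CPM in S, and 115, 115, 79.8, 72.9 and 88.4 CPM in G2 and M cells. The S phase values stood above all others, and the log2 difference from G1 was 1.30 ± 0.0949 in S (edgeR adjusted p = 1.6e-08) and -0.03 in G2 and M (adjusted p = 0.85). Odc1 had its highest level in G2 and M, with 290.5, 278, 255, 256 and 252 CPM, against 178, 191, 189, 179 and 166 CPM in G1, a rise of 0.58 ± 0.0528 (adjusted p = 1.5e-07). In S it rose by 0.46 (adjusted p = 4.1e-06). The G1 values of Odc1 lay below every S and G2 and M value.

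Of the nucleolar genes, Lyar, which encodes a zinc finger protein, rose by 1.23 and 1.27 in S and in G2 and M cells, Nolc1 by 1.30 and 0.84, and Ncl by 0.85 and 0.78. Shmt1 rose by 2.01 in S (adjusted p = 5.5e-07) and Srm by 1.51 (adjusted p = 3.2e-06). Ppan and Pes1, both of large-subunit assembly, fell in G2 and M, Ppan by 0.46 (adjusted p = 0.00021) and Pes1 by 0.25 (adjusted p = 0.017). Nop16, Wdr43, Bop1, Rrp12 and Polr1b passed the test in neither stage. Of 22 nucleotide and one-carbon genes outside the 34, 19 rose in S, with Paics at 0.87, Umps at 1.42 and Impdh2 at 0.86 among them. Of 49 other ribosome biogenesis genes 18 rose in S and 0 fell.

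Zone and stage went together with the level, in groups of as few as 12 cells in a mouse. The 33 genes summed to 2805 ± 222 CPM in dark zone G1 cells, 4833 ± 590.2 CPM in light zone G1 cells and 7728 ± 666 CPM in light zone S cells (SD, n = 5). Dark zone S cells had 4137 ± 304 CPM and dark zone G2 and M cells 3677 ± 505 CPM, while light zone G2 and M cells had 7640.2 ± 438 CPM. Myc spanned 4.40 ± 3.28 CPM in dark zone G1 cells to 161 ± 40.0 CPM in light zone S cells, and it was 116 ± 49.8 CPM in light zone G1 cells. The dark zone G1 values, 0.0 to 8.61 CPM by mouse, lie near the floor and rest on very few Myc UMIs. Light zone G1 cells thus had more Myc than dark zone S cells, at 30.3 ± 21.2 CPM, with sums of the other 33 genes at 4833 and 4137 CPM.

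Myc UMIs were sparse in single cells. Of the 2969 GC B-like cells, 142 had under 2000 UMIs and were left out. Of the other 2827, thinned to 2000 UMIs, 173 held a Myc UMI, or 6.12% (exact 95% interval 5.26 to 7.07%, counting error only); without thinning, 20.1% of GC B-like cells held 1 or more. The share was 1.41% in 1702 thinned Tfh-like and 2.05% in 195 thinned plasma cell-like cells. Their full median depths were 3602 and 8534 UMIs against 10005 in GC B-like cells. It was 1.82% in 606 other CD4 T-like, 3.04% in 230 macrophage or monocyte-like and 5.16% in 775 Treg-like cells. Mature non-GC B-like cells had 7.73% of 543 and CD8 T-like cells 13.6% of 236. In the Sox4 Pcp4 B cluster the share was 15.6%, or 46 of 294 cells. Of these, p19-/- mouse 1 gave 246 cells, 36 of them positive. Of the 173 GC B-like cells 126 (72.8%) lay in the light tertile and 15 (8.67%) in the dark tertile. The shares were 30.3% and 35.3% of the 2654 cells without a Myc UMI after thinning. By mouse, the light share of the positive cells ran from 65.6 to 85.7%. Their dark share ran from 3.45 to 19.5%, highest in WT mouse 1, which held 8 of the 15 cells. By stage, pooled over mice, the positive cells were close to the other cells, with 22.5% against 28.5% in G1 and 30.6% against 25.7% in S. In G2 and M the pooled shares were 46.8% and 45.7%. Single mice varied more. In p19-/- mouse 2 the shares were 14.3% against 35.5% in G1 and 42.9% against 29.5% in S. WT mouse 2 had 20.7% against 20.6% in G1 and 24.1% against 28.0% in S.

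GC B-like cells with a Myc UMI after thinning had more of the growth genes than cells without. The cells called Myc-zero include some whose Myc UMIs were lost in thinning. The 33 genes summed to 8048, 8167, 6270.5, 6707 and 7121 CPM in the Myc-positive cells of p19-/- mice 1 to 3 and WT mice 1 and 2 and to 4595, 4375, 4072, 4197 and 4341 CPM in the Myc-zero cells. Each positive value stood above every zero value. Of the 30 genes that could be tested at 2000 UMIs per cell, 13 were higher and 0 lower by edgeR's quasi-likelihood test (mouse as block), with a median of 0.71 against -0.03 over all genes, where 1.33% of all genes were called higher. Myc defines the groups and was left out, and Bop1, Polr1b and Rrp12 fell under the filter. DESeq2 called 11, where it called 1.1% of all genes higher. Without p19-/- mouse 3 the count was 7, and without WT mouse 1 it was 8. At 5000 UMIs per cell, a depth added after the data had been seen, 28 of 33 were higher, where 7.57% of all genes were; at 1000 UMIs 0 of 25 were, against 0.415%, with 6 at an unadjusted p under 0.05.

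The genes called at 2000 UMIs were Srm, Gnl3, Fscn1, Npm1, Nop58, C1qbp, Nhp2, Shmt1, Nolc1, Lyar, Ncl, Gar1 and Cdca7. Srm read 214, 214, 131, 171 and 310.3 CPM in positive and 87.5, 45.5, 48.3, 65.2 and 52.6 CPM in zero cells, 1.68 ± 0.250 higher on the log2 scale (edgeR adjusted p = 0.00021). Npm1 read 2167, 2262, 1607, 1719.5 and 2155 CPM against 1158, 1355, 1223, 1329.8 and 1311 CPM, 0.53 ± 0.0887 higher (adjusted p = 0.00069). Both genes were higher in the positive cells of all 5 mice and the groups did not overlap. Ncl read 905, 1119, 754, 805 and 707 CPM against 672, 486, 519, 541 and 568 CPM, 0.53 higher (adjusted p = 0.016), again with no overlap. Nolc1 was 1.04 higher (adjusted p = 0.015), yet in WT mouse 2 it was lower, at 86.2 against 105 CPM.

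Gnl3, whose window holds neither motif, was 1.60 ± 0.250 higher (edgeR adjusted p = 0.00037). Odc1, whose window holds 2 copies of the variant, differed by -0.01 ± 0.186 (adjusted p = 1.0). It read 214, 238, 221, 183 and 310.3 CPM in positive and 240.0, 218, 212, 220.2 and 223 CPM in zero cells, with values that overlap, and at 5000 UMIs it was 0.23 ± 0.0894 higher (adjusted p = 0.094). Timm8a1, a mitochondrial import gene with 2 copies of CACGTG, was 0.91 higher at 2000 UMIs (adjusted p = 0.098) and 1.42 higher at 5000 UMIs (adjusted p = 1.2e-05). Nop2, an rRNA methyltransferase gene with 1 copy, was 1.12 (adjusted p = 0.13) and 0.90 higher (adjusted p = 0.0076). These genes were picked from those whose windows are printed. Whether a motif in the window goes with the difference was not tested over the genes.

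**Figure D4:**
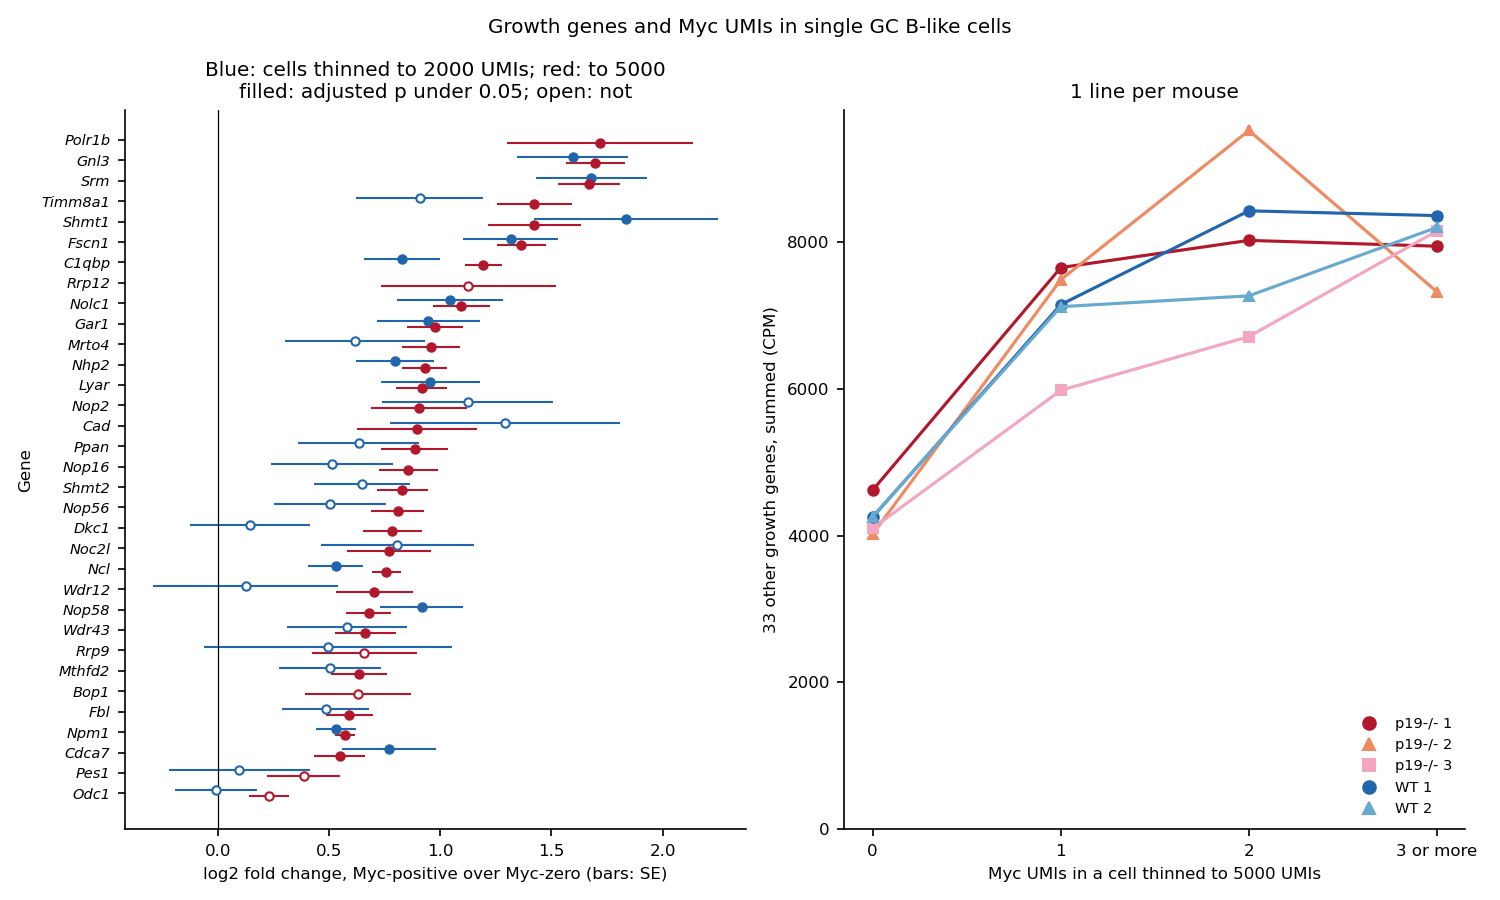
Left, log2 fold change with SE of each growth gene in Myc-positive over Myc-zero GC B-like cells of 5 mice, with cells thinned to 2000 UMIs (blue) or 5000 UMIs (red), filled where the adjusted p is under 0.05. Right, summed level of the 33 genes in CPM by the number of Myc UMIs in a cell thinned to 5000 UMIs, 1 line per mouse; every mouse rises from 0 to 1 Myc UMI, from a mean of 4250.1 to 7077 CPM.

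By number of Myc UMIs at 5000 UMIs per cell, the 33 genes averaged 4250.1 ± 230.0 CPM at 0, 7077 ± 654 at 1, 7989 ± 1083 at 2 and 7995 ± 406 CPM at 3 or more (SD, n = 5 mice; 2074, 183, 70 and 57 cells). The step from 0 to 1 exceeded the spread of the mice. From 1 to 2 Myc UMIs the sum was higher in all 5 mice, and from 1 to 3 or more in 4 of 5, with as few as 5 cells in a mouse at these levels; no test was made of these steps. Summed ribosomal protein genes stayed between 264930.0 and 268758 CPM over the 4 levels.

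The nearest genes outside the list, by adjusted p among those with at least 10 CPM, were Nfkbia at 1.69, Cd83 at 1.36, Il4i1 at 1.83, Mif at 0.79 and Junb at 1.23 on the log2 scale (edgeR adjusted p = 3.6e-08, 4.3e-07, 1.6e-05, 3.2e-05 and 8.6e-05). Nfkbia, Cd83 and Il4i1 belong to the light zone score. Of 17 tested genes linked to GC selection, 8 were higher at 2000 UMIs, including Batf at 1.86, Ccnd2 at 2.69 and Hspd1 at 0.84. The other ribosome biogenesis list had 1 of 38 higher at 2000 UMIs (Mybbp1a, 1.06) and 20 of 48 at 5000 UMIs, and the translation factors 2 of 12 (Eif5a and Eif4a1) and 11 of 12. Of 81 ribosomal protein genes 0 were higher and 1 lower at 2000 UMIs, and 5 were higher and 6 lower at 5000 UMIs.

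Restricted to the light tertile, 0 of 24 genes were called at 2000 UMIs by edgeR's test, with 10 at an unadjusted p under 0.05 and 0.249% of all genes higher, and 13 of 31 at 5000 UMIs, where 1.78% of all genes were higher. These included Gnl3 at 1.29, Fscn1 at 0.92, C1qbp at 0.89, Srm at 0.85, Nolc1 at 0.67, Ncl at 0.60 and Npm1 at 0.45. In the dark tertile, with 15 Myc-positive cells at 2000 UMIs, 0 of 14 were called at 2000 UMIs, with 2 at an unadjusted p under 0.05, and 0 of 21 at 5000 UMIs, with 3; 0.0% of all genes were higher at either depth. In G1 cells 2 of 15 were called at 2000 UMIs, Gnl3 and Fscn1 (1.57% of all genes higher), and 11 of 25 at 5000 UMIs, where 3.4% of all genes were higher. At 2000 UMIs the sums of Myc-positive G1 cells held 6000 to 28000 UMIs, those of Myc-zero G1 cells 84000 to 634000. In small sums a few UMIs make a high CPM, so a gene can pass the filter on low counts through the positive cells alone. The 15 genes tested and the 2 calls thus lean toward genes high in positive cells, and no conclusion is drawn from them. Before thinning, Myc-positive cells had a median of 17049 UMIs against 11285 UMIs, averaged over mice. A T cell marker UMI was then found in 76.2% of positive and 69.7% of zero cells, averaged over mice. In the thinned counts, summed T cell markers were 180.5 ± 72.6 against 164 ± 23.9 CPM. The part of depth and of T cell marker UMIs in the difference was not tested. Among cells with no T cell marker UMI, 17 of 18 members tested had positive differences, with a median of 0.71. Of these 1 was called, Srm at 2.21 (edgeR adjusted p = 0.020), where 0.207% of all genes were. Fewer genes were tested than in the main comparison, and sums of positive cells were as small as 6000 UMIs. The limit given for G1 cells holds here too, so this subset does not settle the part of T cell RNA.

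None of the 34 genes differed by genotype past the threshold in GC B-like cells. Of all genes 0.019% passed by edgeR's quasi-likelihood test, and 0 of the 34 did; 2 had an unadjusted p under 0.05, and DESeq2 also called 0 of the 34 and 0.484% of all genes. The 33 genes summed to 5559 ± 604 CPM in p19-/- mice (SD, n = 3) and 5408 ± 218 CPM in WT mice (n = 2). Members had a median log2 difference (p19-/- over WT) of 0.05 against 0.00 over all genes, from -0.19 for Shmt2 to 0.64 for Myc, with 25 positive and 9 negative. Without p19-/- mouse 1 the median was -0.07, with 12 positive and 22 negative, and Myc stood at 0.41.

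Myc read 108, 79.2 and 60.9 CPM in p19-/- mice 1 to 3 and 43.2 and 60.1 CPM in WT mice 1 and 2. The p19-/- values lay above both WT values, with p19-/- mouse 3 close to WT mouse 2, and the log2 difference was 0.64 ± 0.238 (edgeR adjusted p = 0.56). With no filter on low counts Myc alone of the members passed, at 0.62 ± 0.154 (adjusted p = 0.026), where 1.16% of all genes passed, so its call depends on the filter. Noc2l, whose yeast counterpart takes part in large-subunit export, read 84.7, 73.0 and 59.4 against 54.9 and 51.5 CPM, 0.40 ± 0.146 higher (adjusted p = 0.56). Nop2 stood at 0.35, Fscn1 at 0.33, Mthfd2 at 0.15 and Shmt2 at -0.19 (adjusted p = 0.65, 0.68, 0.67 and 0.66).

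The share of GC B-like cells with a Myc UMI (2000 UMIs per cell) was 9.50, 8.71 and 7.11% in p19-/- mice 1 to 3 and 3.98 and 6.09% in WT mice 1 and 2. The means were 8.44 ± 1.22% and 5.03 ± 1.496%, a difference of 3.41 percentage points (exact permutation test, two-sided, p = 0.2, the smallest value that 3 against 2 mice allow). At other depths the genotypes overlapped: p was 0.4 at 1000 UMIs, 0.6 at 5000 UMIs and 0.6 without thinning, where WT mouse 2, at 4.71, 13.8 and 26.4%, exceeded 1 or 2 of the p19-/- mice. T cell markers stood at 161 ± 9.55 CPM in p19-/- and 134 ± 1.39 CPM in WT GC B-like cells, and their part was not tested. Whether the rise with Myc differed between genotypes was tested as an interaction: 0 of 30 genes passed by edgeR's test, where 0.249% of all genes did, with 3 at an unadjusted p under 0.05. Mrto4 came closest at -1.53 ± 0.560 (adjusted p = 0.84).

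**Figure D5:**
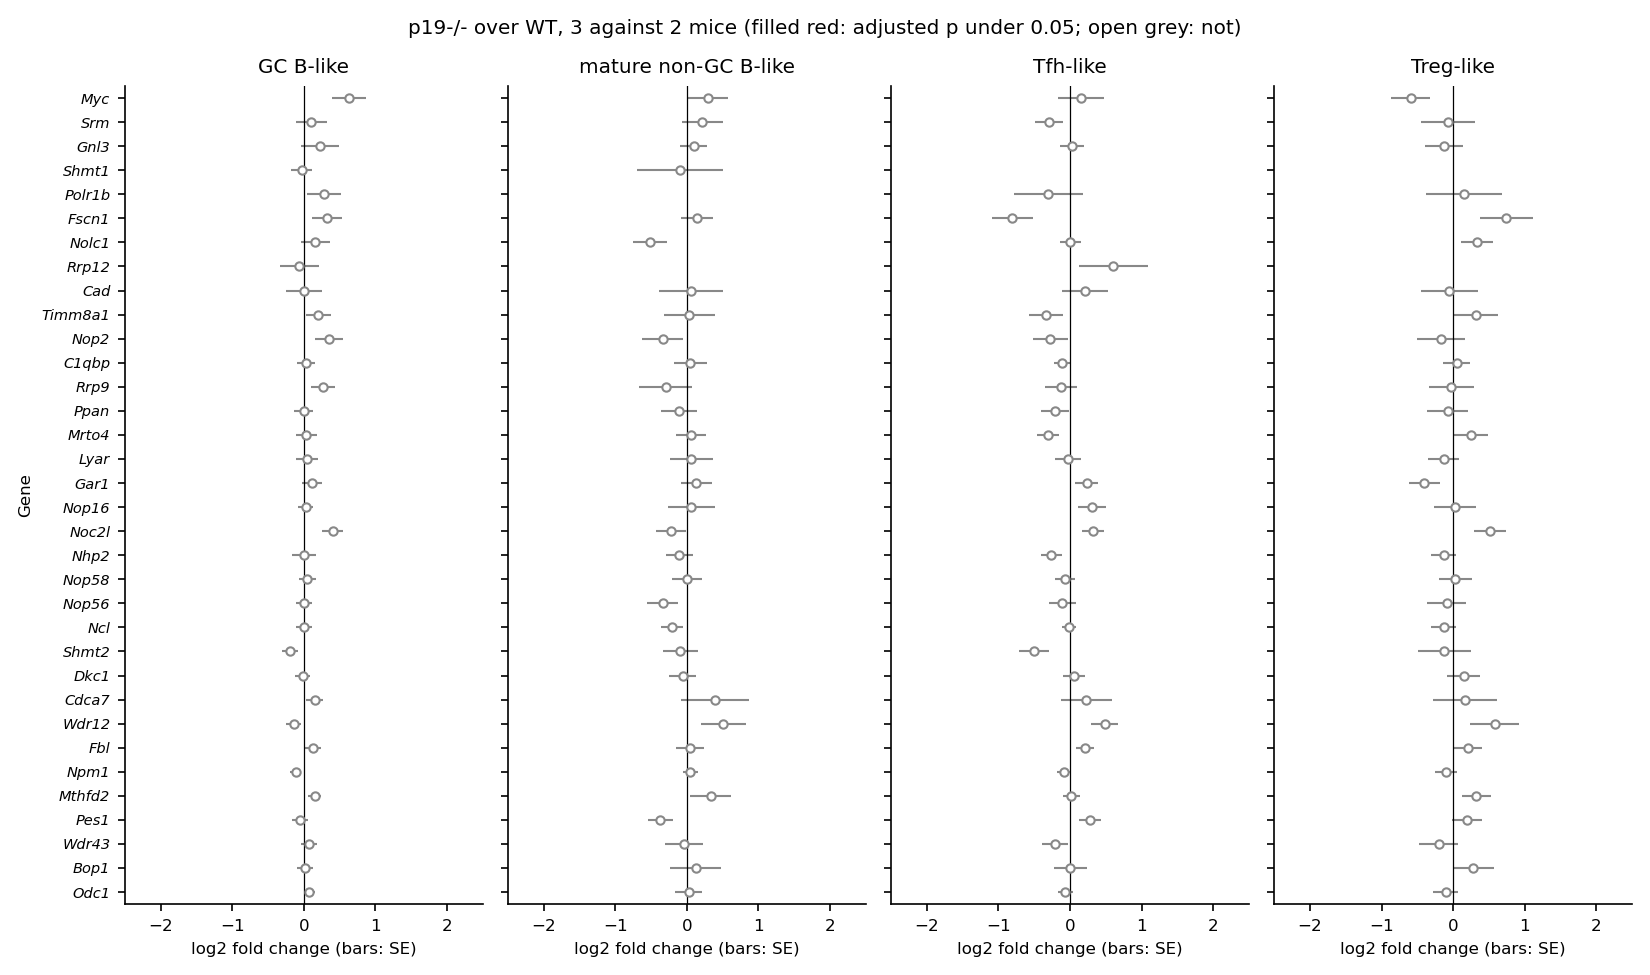
Log2 fold change with SE of each growth gene in p19-/- over WT mice (3 against 2), in GC B-like, mature non-GC B-like, Tfh-like and Treg-like cells. All points are open grey, since none has an adjusted p under 0.05; Myc stands at 0.64 in GC B-like and at -0.59 in Treg-like cells.

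In the other classes 0 of 32 genes passed in mature non-GC B-like cells by edgeR's test (0.0% of all genes, 0 members at an unadjusted p under 0.05), 0 of 33 in Tfh-like cells (0.65% of all genes, 3 members unadjusted) and 0 of 32 in Treg-like cells (0.738% of all genes, 2 members unadjusted). In Tfh-like cells Fscn1 came closest at -0.81 ± 0.284 (adjusted p = 0.37), with 24.3, 24.3 and 22.3 CPM in p19-/- and 24.9 and 56.6 CPM in WT mice, so that WT mouse 2 stood apart. Without WT mouse 1 it fell by 1.24 (adjusted p = 0.035). Myc read 18.6, 8.10 and 19.01 CPM in p19-/- and 14.1 and 14.8 CPM in WT Tfh-like cells, with overlap. In Treg-like cells Myc read 59.9, 27.3 and 43.5 against 49.1 and 86.1 CPM, also with overlap (-0.59 ± 0.277, adjusted p = 0.60). In mature non-GC B-like cells Nolc1 had the lowest p at -0.51 ± 0.237 (adjusted p = 0.92). The p19-/- group holds the only male, and with 2 WT mice the SE of a member in GC B-like cells reached 0.238 for Myc, which sets the size of difference that this number of mice can show.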

How the data were processed

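The deposited matrices hold raw UMI counts per gene and cell, made by the authors with Cell Ranger 3.0.2 and STAR on mm10, per the submitters' processing notes; the BCR tables give UMI counts per contig. Barcodes with at least 200 genes and at most 10% mitochondrial UMIs were kept, and 156 cells (1.67%) with the highest Scrublet scores were removed as doublets. Scanpy 1.11.5 clustered the cells (2000 variable genes, 20 components, Leiden resolution 1.0) without the 34 genes, immunoglobulin or T cell receptor genes.

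Counts were summed per mouse and group and tested with edgeR 4.0.16 (R 4.3.3; TMM, filterByExpr, quasi-likelihood F test, Benjamini-Hochberg over all genes tested). The SE is the log2 fold change divided by the square root of F. Comparisons within mice used the mouse as block; genotypes were compared without one. Cell classes with under 20 cells in a mouse were left out of class means and tests in that mouse; groups by zone, stage or Myc within GC B-like cells had no such minimum. DESeq2 1.42.0 was an alternative, and scripts were tested on simulated data. Members and lists were chosen with earlier results of these data known. Named members are Myc and those called, up to 10 a direction, or else the 6 with the lowest p; per-mouse values go to genes chosen for their roles. Nothing states whether the mice were processed on separate days. Npm1 and other genes with pseudogenes may gain or lose ambiguous reads.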

Additional observations from a re-analysis of the deposited data

How the results depend on the processing

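Of the members named per comparison, most kept their direction and their side of the threshold under the alternatives: 1093 values did, 163 lost the threshold, 5 gained it and 28 turned. Members called by zone ranged from 24 to 34, with Myc from -3.77 to -2.56 (dark over light), in S from 25 to 29, in G2 and M from 22 to 25, and from 23 to 27, 26 to 29 and 31 to 32 in plasma cell-like, mature non-GC B-like and Tfh-like against GC B-like cells. DESeq2 moved the median of all genes from -0.09 to 0.12 in the plasma cell comparison, from -0.01 to 0.13 in mature non-GC B-like cells and from 0.00 to 0.11 in Tfh-like cells; the direction of the members' medians held.

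The Myc comparison depended most on depth and cells. Instead of 13 members, 0 were called at 1000 UMIs, 33 without thinning, 28 at 5000 UMIs and 31 with all UMIs of the thinned groups summed; over all genes, 64 of 4823 were higher in the main comparison, 1750 of 9521 without thinning and 511 of 9071 with all UMIs summed. With at least 2 Myc UMIs 3 were called, in the light tertile 0, in the dark tertile 0 (0 also at 5000 UMIs), in G1 cells 2, in marker-gated GC B cells 2, with a heavy-chain contig 8 and with no T cell marker UMI 1. The subsets hold fewer cells and fewer genes tested. In the Myc comparison a gene can pass the filter on low counts through small sums of Myc-positive cells alone, most easily in these subsets. Their calls and medians are thus not independent of the grouping. The members' median, 0.71 in the main comparison, was 1.00 in G1 cells, 0.70 in marker-gated cells, 0.68 with a contig, 0.71 with no T cell marker UMI, 0.43 in the light tertile and 0.55 at 1000 UMIs. Leaving out single mice gave 7 to 13. Genotype called 1 member in GC B-like cells with no filter on low counts (Myc) and 0 to 1 in Tfh-like cells when single mice were left out (Fscn1, without WT mouse 1). Leaving out single mice gave 1 to 6 in Tfh-like against Treg-like cells and 4 to 11 in the Sox4 Pcp4 B cluster. The cause was not tested.

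Directions turned as follows. In the dark tertile of the Myc comparison, with 15 Myc-positive cells in all and 1 in each of 3 mice, C1qbp was -2.45, Ncl -1.23, Npm1 -0.62, Lyar -0.44, Gar1 -0.15 and Nhp2 -0.0802, and Fscn1 was -0.14 there at 5000 UMIs, where 17 of 21 members were positive with a median of 0.32 against -0.15 over all genes. Npm1 was -0.0274 with at least 2 Myc UMIs and Cdca7 -0.0719 at 1000 UMIs. Odc1 was 0.37 at 1000 UMIs, 0.44 without thinning, 0.23 at 5000 UMIs, also 0.23 in the light tertile, 0.31 with all UMIs summed, 0.0221 with marker-gated cells, 0.0227 with DESeq2, 0.0764 with doublets kept, and -0.116 to 0.0724 when single mice were left out, positive without p19-/- mouse 1 or WT mouse 1. By zone, Odc1 was 0.085 higher in the dark tertile with cycle genes in the dark score. Mthfd2 was -0.0614 by genotype in marker-gated GC B cells. With single mice left out, Myc by genotype in Tfh-like cells was -0.0171 to 0.416, negative without p19-/- mouse 1 or 3, and Myc in mature non-GC B-like against GC B-like cells was -0.114 to 0.2505, negative without p19-/- mouse 3 or WT mouse 1.

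The labels' replicate numbers are shared by only 2 pairs of p19-/- and WT mice, whose deviations correlated at -0.044 and 0.053. So few pairs cannot decide whether mice with the same number were processed together, and no conclusion is drawn from these values. With the replicate number as a block, genotype called 0 members in each class and Myc in Tfh-like cells was -0.0847. Without the mouse as a block, 3 members were called in Tfh-like against Treg-like cells, Odc1 was 0.0421 in the Myc comparison and Myc -0.0138 in mature non-GC B-like cells. Genotype in plasma cells and its alternatives were not run, for want of cells. The share of cells with a Myc UMI differed by 1.78 to 4.66 percentage points between genotypes over its alternatives. Depth limits the Myc comparison, since Myc UMIs are sparse.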
